A study of Salmo salar with 59 samples.

Results

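Spo11, rec114, sycp3 and mcmdc2 are 4 genes of meiotic recombination, and they were followed here through testis, pituitary and adipose tissue of male Atlantic salmon (Salmo salar). Every probe whose RefSeq transcript carried 1 of these symbols in the gene table of the assembly Ssal_v3.1 was taken, which gave 4 of the 42386 probes of the array, 1 per gene, among 25270 genes that a probe matched. The genes have the NCBI gene numbers 106566748 (spo11), 106562128 (rec114), 106561293 (sycp3) and 106590403 (mcmdc2). RNA of 20 farmed post-smolt males was hybridised to 59 one-colour arrays, 1 fish and tissue per array: 20 of testis, 20 of pituitary and 19 of adipose tissue. All fish were post-smolts kept in brackish water. Pubertal fish were those whose testis label gives stage III, IV or V, and immature fish those of stage I. The 6 pubertal fish came from light group A (continuous light; fish 184, 190 and 245) and light group B (increasing light; fish 213, 211 and 202). The 14 immature fish came from light group A (188 and 250), light group B (160 and 203), light group D (decreasing light; 5 fish) and light group E (decreasing light and a low-fat diet; 5 fish). Adipose arrays take the stage of the fish in their label; 12 were immature and 6 pubertal, and 1 entered no group because its label gives a fish number that the other tissues place in another light group.

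Meiotic recombination begins when SPO11, a relative of topoisomerases, cuts both strands of the DNA in spermatocytes. REC114 belongs to the complex that allows SPO11 to cut. SYCP3 is a structural protein of the axial elements, the chromosome cores that become the lateral elements of the synaptonemal complex. MCMDC2, a relative of the replicative MCM helicase subunits, is needed in mice for the repair of these breaks and for the alignment of homologous chromosomes. In the testis of bony fish germ cells develop in cysts enclosed by Sertoli cells.

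Values are log2 signals relative to the 75th percentile of all probes of the same array, so 0 stands for that percentile. A difference between groups on this scale is called log2-ER, the log2 expression ratio, and was tested with limma across all probes. It passed at a Benjamini-Hochberg adjusted p under 0.05 with a log2-ER beyond 0.8, which is a fold of 1.74. No probe was saturated. Between 65.6% and 86.6% of the probes were well above background on testis arrays, 61.6% to 84.3% on pituitary arrays and 51.1% to 79.3% on adipose arrays. Some arrays went against their labels or held signal of another tissue beside their own. The array labelled pituitary of fish 184 had lhb, the luteinizing hormone subunit, at -4.43, against 7.75 to 8.28 in the other 5 pubertal pituitaries, and fshb, the follicle-stimulating hormone subunit, at -6.30, against 8.17 to 9.0. It was left out of the pituitary group and put back as an alternative. The adipose array of fish 202 carried testis genes and is described with the adipose values. On the adipose array of immature fish 236 the pituitary hormone genes pomca and prl reached 5.53 and 4.12. Its 5 fat cell markers averaged 3.88, inside the 2.19 to 4.12 of immature adipose tissue, and it was kept in its group.

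All 4 genes were higher in every pubertal testis than in any of the 14 immature testes. Rec114 differed most, with 0.22, 1.31, 2.65, 3.21, 3.02 and 2.87 in pubertal fish 184, 190, 213, 245, 211 and 202, in ascending order of gonadosomatic index (GSI, the gonad weight as a share of body weight), against -2.47 to -1.20 (median -1.89) in immature testes. Its log2-ER was 4.10 ± 0.32 (standard error; 17.2-fold; limma, adjusted p = 7.3e-10). Spo11 stood at 0.89, 0.63, 1.68, 3.15, 3.23 and 3.94 in the same pubertal fish, against -1.49 to -0.47 (median -0.96) in immature testes. The log2-ER of spo11 was 3.23 ± 0.35 (9.38-fold; limma, adjusted p = 6.3e-08). For rec114 and spo11 the gap between the highest immature and the lowest pubertal fish was therefore wider than the whole immature range. The same held for sycp3 and not for mcmdc2.

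Sycp3 stood at 1.85, 2.12, 2.35, 4.89, 4.90 and 5.23 in pubertal testes, against 0.13 to 0.73 (median 0.46) in immature ones, a log2-ER of 3.09 ± 0.40 (8.49-fold; limma, adjusted p = 6.6e-07). Mcmdc2 stood at -1.38, -1.34, -1.01, 1.86, 1.80 and 2.64 in pubertal testes, against -3.55 to -1.56 (median -2.84) in immature ones. Its log2-ER was 3.37 ± 0.49 (10.3-fold; limma, adjusted p = 3.4e-06). For mcmdc2 the groups came close, since immature fish 160, at -1.56, was 0.19 below pubertal fish 184. The next immature fish, 226, was at -2.64.

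**Figure D1:**
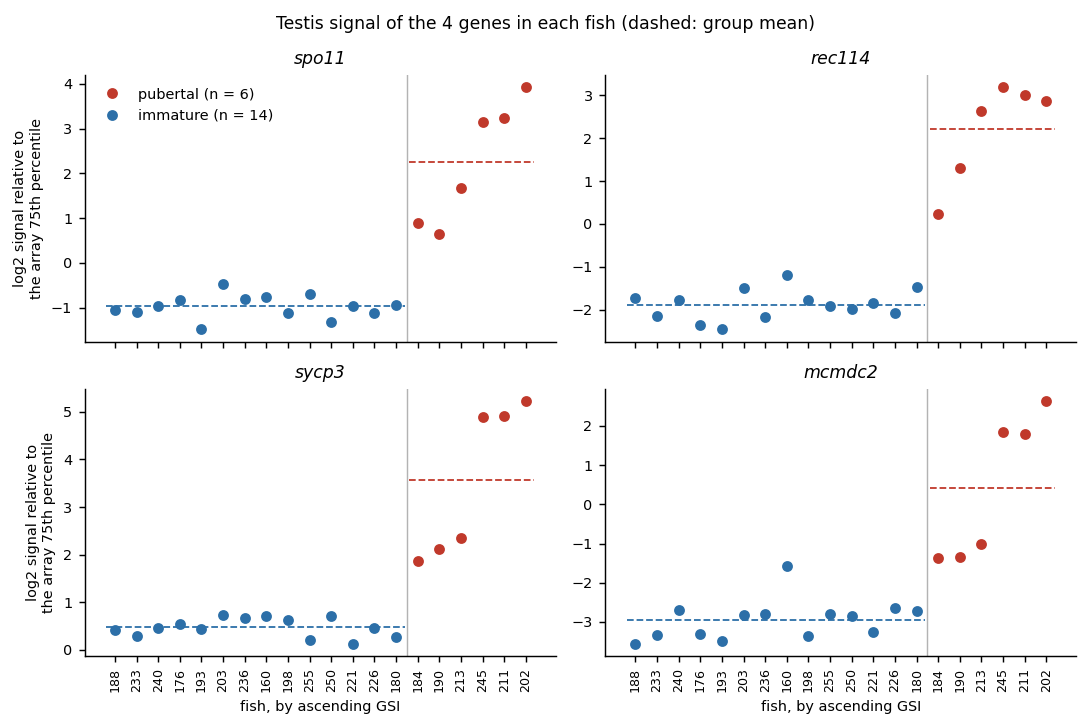
Testis signal of the 4 genes (y axis, log2 relative to the 75th percentile of the array) in each fish, placed by ascending GSI (x axis); red points are the 6 pubertal and blue points the 14 immature fish, and dashed lines are group means. The red points of sycp3 and mcmdc2 fall into a lower set (fish 184, 190 and 213) and an upper set (245, 211 and 202), while rec114 in fish 213 lies with the upper set.

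Such rises were common in these testes: 59.1% of the 35618 probes tested passed, 31.9% (11347) as higher in pubertal testes and 27.2% (9697) as lower, and 12.9% were higher with no overlap between the groups. In size the 4 genes stood near the top, with rec114 at rank 57, mcmdc2 at 191, spo11 at 247 and sycp3 at 315 from the highest log2-ER. In the authors' processed values the split was 6307 higher and 9527 lower, and the 4 genes were still called higher. The genes were put forward by the study from these same fish, so their direction and rank are a description of these testes and no independent evidence. The array measures RNA per unit of total RNA, and in whole testis more cells of a type and more RNA per cell cannot be told apart. Markers of other testis cells moved the other way between pubertal and immature testes: amh, made by Sertoli cells, by -4.03, and cyp17a1 and star of the Leydig cells by -3.37 and -2.74 (the Sertoli probe and all 3 Leydig probes passed). The sperm tail genes spag16 and tekt1 were higher by 3.84 and 2.32 and the germ cell helicase ddx4 by 1.26; of the 4 spermatogonia probes 2 were called higher and 1, dnd1, lower (-1.66). The part of any of these in the rise of the 4 genes was not tested. With the scan batch as a term the log2-ER of the 4 genes lay between 3.05 and 4.08, and within the larger batch (5 pubertal and 11 immature fish) between 3.36 and 4.52. In the smaller batch, which held pubertal fish 184 and 3 immature fish, the difference was 1.61 to 2.06, with no test.

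The 4 genes did not rise in step along GSI. Each pubertal fish was placed between the mean of the immature testes (0) and the mean of the 3 fish of highest GSI (1). Rec114 stood at 0.43, 0.65 and 0.92 in fish 184, 190 and 213. Spo11 stood at 0.42, 0.36 and 0.60 in these fish, level with rec114 in fish 184 (0.37 against 0.36 for rec114 after normexp correction) and below it in fish 190 and 213. Sycp3 stood at 0.30, 0.36 and 0.41, and mcmdc2 at 0.31, 0.32 and 0.38. In fish 213 rec114 was thus within 0.38 log2 units of the mean of the 3 fish above it, whereas sycp3 and mcmdc2 were 2.65 and 3.11 log2 units below theirs. Between fish 213 and fish 245, the next in GSI, sycp3 gained 2.53, mcmdc2 2.87 and spo11 1.47 log2 units, and rec114 0.56. Rec114 was highest in fish 245, and the other 3 genes in fish 202, the fish of highest GSI. With scaling to the median sycp3 was highest in fish 211.

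**Figure D2:**
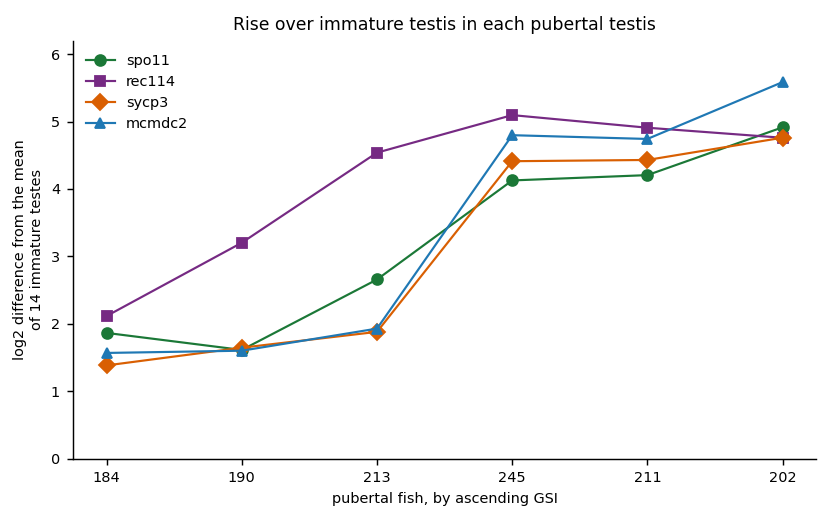
Log2 difference of each pubertal testis from the mean of the 14 immature testes (y axis) for the 4 genes, with the 6 pubertal fish in ascending order of GSI (x axis) and 1 fish per point. Rec114 (squares) is already 4.54 above the immature mean in fish 213, where sycp3 (diamonds) and mcmdc2 (triangles) are 1.88 and 1.93 above it.

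This order of the genes in fish 213 was the same for rec114 and spo11 whichever scaling was used. Over scaling to the 75th percentile, to the median, by quantiles, after normexp background correction and in the authors' processed values, rec114 in fish 213 lay at 0.89 to 1.02 and spo11 at 0.52 to 0.70. Sycp3 lay at 0.32 to 0.51 and mcmdc2 at 0.26 to 0.47, and which of these 2 was lower changed with the scaling. The stage labels do not follow the step, because stage IV is given to fish 184 and 190 below it and to fish 245 and 211 above it, stage III to fish 213 and stage V to fish 202. The study's histology differs from these labels. By the most advanced cells it gives stage V, with spermatozoa, to fish 245, 211 and 202, the 3 fish of the upper set. It gives stage IV to fish 184 and 190 and stage III to fish 213, so this score does follow the step. By the dominating cells it gives stage II to fish 184 and stage III to the other pubertal fish, which does not.

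A straight slope on the rank of GSI was fitted to the 6 pubertal testes as well. It was 0.93 ± 0.15 log2 units per rank for mcmdc2, 0.79 ± 0.13 for sycp3 and 0.70 ± 0.11 for spo11 (limma, adjusted p = 0.036 for each), and 0.54 ± 0.14 for rec114 (adjusted p = 0.047). Of the 25973 probes tested, 8.11% passed, 4.5% in the same direction (1169) and 3.61% in the other (937); with scaling to the median the split was 793 and 2803, and by quantiles 1117 and 2195. The calls rest on few fish: leaving out fish 184, 190, 202 or 211 took the adjusted p of each of the 4 genes to 0.059 or more (the highest was 0.19, for rec114 without fish 184), and without fish 245 that of rec114 was 0.071. Sycp3 and mcmdc2 fell into a lower and an upper set of fish, so no correlation coefficient over the 6 fish is given. The straight slope of these 2 genes has the same limit. In fish 213 spo11 lay between the sets and rec114 with the upper set. The exact permutation test of the rank correlation passed for spo11, sycp3 and mcmdc2 (p adjusted over the 4 genes = 0.011 to 0.022) and not for rec114 (adjusted p = 0.10). That of Pearson's r passed for all 4 genes (exact permutation, adjusted p = 0.011 to 0.028, the highest for rec114). Both tests rest on 6 fish, which for sycp3 and mcmdc2 fell into 2 sets.

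Immature testes already held a measurable signal of all 4 genes, well above background on 14 of 14 arrays. Most probes were measured there, since 66.5% to 84.1% of all probes were well above background on these arrays. The level was even for sycp3 (0.47 ± 0.20, SD, n = 14) and spo11 (-0.98 ± 0.26) and more variable for rec114 (-1.89 ± 0.35) and mcmdc2 (-2.94 ± 0.51). Fish 160 was the highest immature fish for rec114 and mcmdc2, at -1.20 and -1.56, and fish 203 for spo11 and sycp3, at -0.47 and 0.73. Both are the immature fish of light group B. The study's histology scores list fish 160 and 203 with medium germinative compartments, tubules and much cell division. Its histology figure instead names fish 160 and 250 as those with tubules. The scores also list oocytes in fish 198, 255 and 221, none of them the highest immature fish for any of the 4 genes. The part of oocytes in the immature signal was not tested. Fish 160 and 250 are those the study describes as possibly maturing; fish 250 lay inside the immature range of the 4 genes, at -1.32 for spo11, -1.99 for rec114, 0.71 for sycp3 and -2.86 for mcmdc2.

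Neither growth of the immature gonad nor the light group went with a change that passed the test. The slope on the rank of GSI among the 14 immature testes was -0.001 ± 0.020 log2 units per rank for spo11, 0.019 ± 0.024 for rec114, -0.007 ± 0.017 for sycp3 and 0.043 ± 0.032 for mcmdc2 (limma, adjusted p = 1.0 for each). Over the same 14 fish Spearman's rho lay between -0.09 and 0.48 and Pearson's r between -0.15 and 0.35. For these 4 relations the smallest permutation p was 0.083 for rho (0.33 after adjustment) and 0.22 for r (0.79 after adjustment). Pearson's r lay between -0.08 and 0.21 without the 2 fish farthest from the middle rank. Light group E differed from D by -0.01 to 0.19 log2 units (standard errors 0.14 to 0.21), and the 4 immature fish of A and B from the 10 of D and E by 0.10 for spo11, 0.40 for rec114, 0.23 for sycp3 and 0.34 for mcmdc2 (standard errors 0.13 to 0.29, adjusted p = 0.88 to 0.93). Limma called 0 of all probes in each of these 3 fits. For the slope, which had no fold limit, 541 probes had an unadjusted p under 0.05. For the light groups 178 and 492, in the order given, had such a p and a log2-ER beyond 0.8. The value of mcmdc2 between the light groups was -0.034 without fish 160.

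Against the pituitary of immature fish, immature testis was higher in all 4 genes. Sycp3 was 6.02 ± 0.15 log2 units higher (65.0-fold), rec114 4.45 ± 0.31 (21.8-fold), spo11 3.81 ± 0.26 (14-fold) and mcmdc2 1.78 ± 0.17 (3.43-fold), with limma adjusted p of 5.6e-25, 9.1e-14, 5.2e-14 and 1.4e-10. Rec114 was well above background on few pituitary arrays, and with its dim values set to the lowest signal well above background the difference was 3.67 (12.7-fold). Of the 33939 probes tested, 50.5% passed, 23% in this direction and 27.4% in the other. The pituitary signal was low and partly unmeasured: in immature fish sycp3 averaged -5.55 and was well above background on 10 of 14 arrays, spo11 averaged -4.78 (11 of 14), rec114 -6.34 (5 of 14) and mcmdc2 -4.72 (13 of 14). No immature testis overlapped an immature pituitary for any of the 4, as was so for 14.1% of the probes. Batch and tissue were only partly separated; with the scan batch as a term, and within the batch shared by 11 testes and 6 pituitaries, the differences lay between 2.02 and 6.12. After normexp background correction the difference of mcmdc2 was 0.49 and no longer passed. The other genes still passed under all alternatives run. Their differences lay at 2.75 to 6.12 for sycp3, 1.03 to 4.75 for rec114 and 1.54 to 4.10 for spo11.

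Immature adipose tissue was again lower than immature testis in 3 of the genes, while the difference of mcmdc2 did not pass. Sycp3 was not well above background on any of the 12 immature adipose arrays. Its difference on the scanned values was 6.82 ± 0.22 (limma, adjusted p = 3.1e-20). The probe passed the filter through the testis arrays alone, so this p sets testis signal against unmeasured signal. Immature testis was at least 58.8-fold higher, a bound with no test. It was set against the lowest signal that was well above background on each adipose array or the probe's own, whichever was higher. Rec114 (4.89 ± 0.31, adjusted p = 1.0e-13) was measured on 1 of 12 adipose arrays, so its p too rests mostly on unmeasured adipose signal. Its difference was 3.43 (10.8-fold) with dim values set in that way. Spo11 (3.47 ± 0.20, adjusted p = 2.0e-14) was measured on 9 of 12. Mcmdc2 was measured on 10 of 12 adipose arrays and differed by only 0.62 ± 0.38 (limma, adjusted p = 0.14), while of the 33667 probes 56.3% were called, 25.9% as higher in immature testis and 30.4% as lower. Immature testis lay above immature adipose tissue without overlap for the other 3 genes, as for 13.2% of the probes. For sycp3 all and for rec114 most of the adipose values were unmeasured signal. Batch and tissue were hardly separated, since all but 1 of the 12 immature adipose arrays lay in scan batches without testis. The small batch of that array also held 3 immature testes. There the differences were 4.21 for spo11, 5.31 for rec114, 6.2 for sycp3 and 2.01 for mcmdc2, with no test. The small difference of mcmdc2 over all arrays cannot be told apart from scan batch. After normexp correction that of rec114 was 0.64 and no longer passed, and that of mcmdc2 was -0.20. Over all alternatives run sycp3 lay between 2.35 and 6.89 and spo11 between 1.12 and 4.21, and both still passed. The size of these differences, and the bound, thus depend on the processing.

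**Figure D3:**
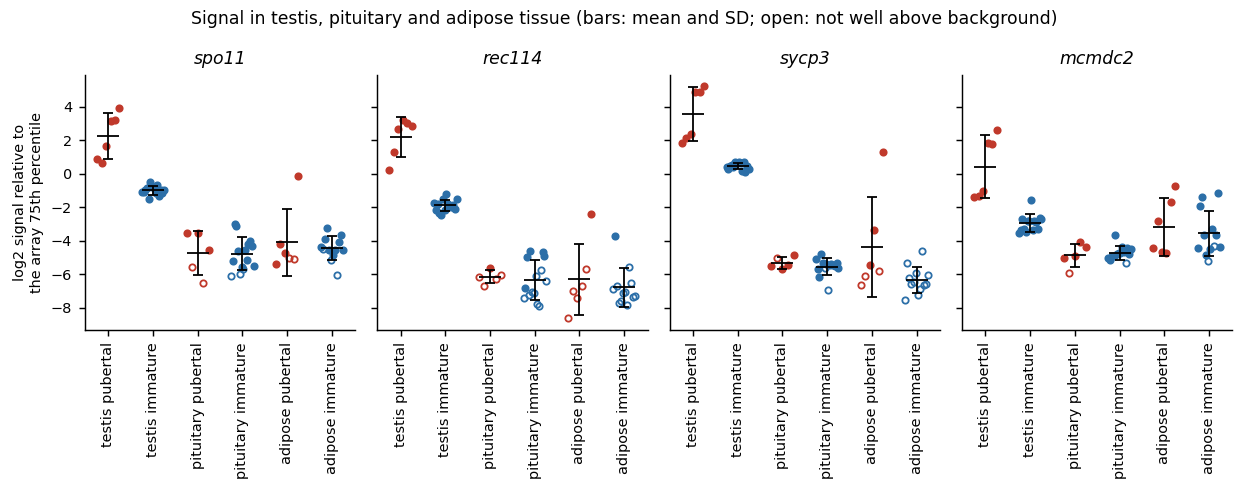
Signal of the 4 genes (y axis, log2 relative to the 75th percentile of the array) in pubertal (red) and immature (blue) fish of each tissue; open points were not well above background, and bars give the mean and SD without the array labelled pituitary of fish 184. Testis lies above both other tissues except for mcmdc2, whose adipose points spread into the testis range, and for 1 high adipose point of fish 202.

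In the order of the 6 group means, pubertal testis came first and immature testis next for each gene, and these neighbours did not overlap. The pubertal adipose group overlapped the immature testes through fish 202 alone for spo11, rec114 and sycp3, and for mcmdc2 it lay only 0.24 log2 units below them and overlapped too. The pituitary and adipose groups overlapped their neighbours in the order for each gene, with gaps between means of 0.04 to 1.16.

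In the pituitary puberty left the 4 genes without a called change. Spo11 stood at -3.52, -5.55, -3.52, -6.50 and -4.57 in pubertal fish 190, 213, 245, 211 and 202, against -6.07 to -2.97 (median -4.87) in the 14 immature fish. The log2-ER was 0.05 ± 0.52 for spo11, 0.19 ± 0.51 for rec114, 0.25 ± 0.24 for sycp3 and -0.14 ± 0.25 for mcmdc2 (limma, adjusted p = 1.0 for each), where 0.273% of the 34826 probes passed as higher. The groups overlapped for all 4 genes, and 0.066% of the probes were higher without overlap. Only the larger scan batch held both groups, and within it the value of mcmdc2 was 0.023. The maturity effect in testis exceeded that in pituitary by 3.45 ± 0.62 for spo11, 4.31 ± 0.55 for rec114, 3.18 ± 0.44 for sycp3 and 3.87 ± 0.53 for mcmdc2 in limma's test of the interaction, in which the fish was a random effect (adjusted p = 1.0e-05, 2.4e-08, 1.1e-07 and 8.2e-08). Of 38211 probes, 55.7% passed that test, 31.6% in the same direction (12073) and 24.1% in the other (9207; 6617 and 8823 in the authors' values), and the testis values are those already given. Only 1 of the 5 pubertal pituitaries and 5 of the 14 immature ones measured rec114 above background, so its pituitary term rests mostly on unmeasured signal.

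In adipose tissue 1 pubertal array stood apart. On the array of fish 202 sycp3 stood at 1.30, against -6.64 to -3.38 in the other 5 pubertal fish and -7.52 to -4.63 in immature fish. Spo11 was -0.16 there, against -5.40 to -4.20 and -6.04 to -3.24, and rec114 was -2.42, against -8.61 to -5.66 and -7.82 to -3.69. Mcmdc2 was -0.72 on this array, against -4.75 to -1.69 in the other pubertal fish and -5.22 to -1.16 in immature fish. Adipose tissue minus testis of the same fish was -5.29 to -3.37 for the 4 genes.

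Markers of testis moved with it on the same array. The germ cell gene ddx4 stood at 4.22 in adipose tissue of fish 202, against -3.90 to 0.54 in the other pubertal fish, amh at 2.59 against -6.87 to -4.60, and the sperm tail gene tekt1 at 2.70 against -2.88 to -2.19. In the testis of fish 202 amh stood at 0.39, below its value on the adipose array. Pubertal testes held ddx4 at 7.65 to 8.22 and tekt1 at 2.26 to 4.85. Tekt1 was not particular to testis, since it stood at 1.46 to 2.36 in immature pituitaries and at 0.33 to 1.47 in immature testes. All 10 probes of the spermatogonia, Sertoli, Leydig and sperm lists were well above background on the adipose array of fish 202. Their list means were -0.70, 2.59, -1.64 and 1.38, against at most -3.06, -4.60, -3.12 and -2.77 in the other pubertal adipose arrays. The 5 fat cell markers averaged 3.23 on this array, inside the 2.77 to 4.02 of pubertal adipose tissue, and the part of testis RNA in its values was not tested. Pubertal and immature adipose tissue were compared among fish of A and B only, in a model that also held the light group. The log2-ER was 0.32 ± 0.94 for spo11 and 0.34 ± 1.03 for mcmdc2 (limma, adjusted p = 1.0 for both). Without fish 202 the values were -0.51 and -0.18. Rec114 and sycp3 were well above background on too few arrays to be tested. Of 32892 probes 0 passed, while 2243 had an unadjusted p under 0.05 together with a log2-ER beyond the fold limit of the test. The methods' t-test after adjustment called 0 as well.

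**Figure D4:**
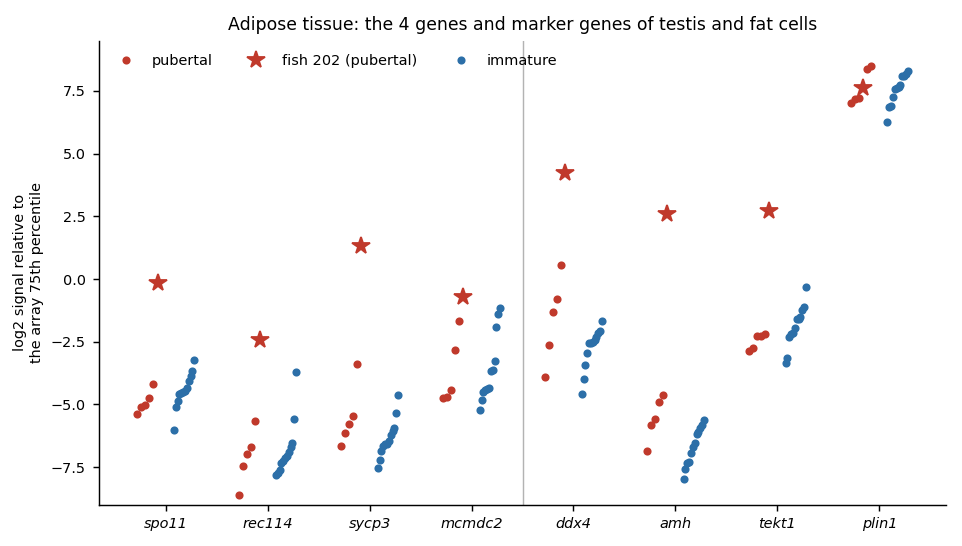
Signal in adipose tissue (y axis, log2 relative to the 75th percentile of the array) of the 4 genes. Right of the line are the testis markers ddx4 and amh, the sperm tail gene tekt1 (also high in pituitary) and the fat cell marker plin1. Red points are pubertal and blue points immature fish, and the star is fish 202. The star lies above the other arrays of its group for the 4 genes, ddx4, amh and tekt1, and among them for plin1.

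Most other meiosis genes that a probe matched by symbol were also called higher in pubertal testis. Of 118 listed symbols outside the replication helicase, 51 matched the RefSeq symbol of a probe, 1 probe each. Only 8055 probes had a symbol other than a LOC number, so listed genes on the array under such a number were missed. The counts per list cover matched genes only. Of these 51, 43 passed as higher in pubertal testis and 0 as lower, where 31.9% of all probes passed as higher and 27.2% as lower. Their median log2-ER was 1.73, against 0.29 over all probes tested. Of 9 genes of break formation and end processing 6 passed, led by the nuclease exo1 (3.24) and mei4, a partner of rec114 (2.53); prdm9 (0.70) and rad50 (0.71) did not pass. Of 12 strand exchange genes 10 passed, with mnd1 (2.74) and rad54l (2.60) highest and xrcc3 (0.65) and brca2 (0.61) below the limit. All 3 matched synaptonemal complex genes passed, with the axis gene sycp2 at 3.76, tex11 at 2.38 and syce3 at 1.56.

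Crossover genes passed in 10 of 13 cases; cntd1 (2.73) and rnf212 (2.28) were highest, and pms1 (0.50) and brip1 (-0.63) lowest. The 7 genes of meiotic cohesin, telomere attachment and their kinase all passed, from rec8b, the meiotic cohesin subunit (4.02), and sgo1 (2.61) to terb1 (2.16) and cdk2 (2.11). The 7 genes of entry into meiosis and the meiotic divisions passed too, from ccnb1 (2.98) and meiosin (2.49) to e2f4 (1.39) and dazl (1.22). Genes of the replication helicase list passed in 8 of 9 cases, with gins4 (2.60) and gins3 (2.55) highest and mcm3 (0.96) and mcm10 (-0.31, not passed) lowest. None of the 45 tested list probes outside the helicase passed in pituitary (median -0.04) and none of 44 in adipose tissue (median 0.04), where 0.304% and 0% of all probes passed, so these counts are no result about the lists.

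**Figure D5:**
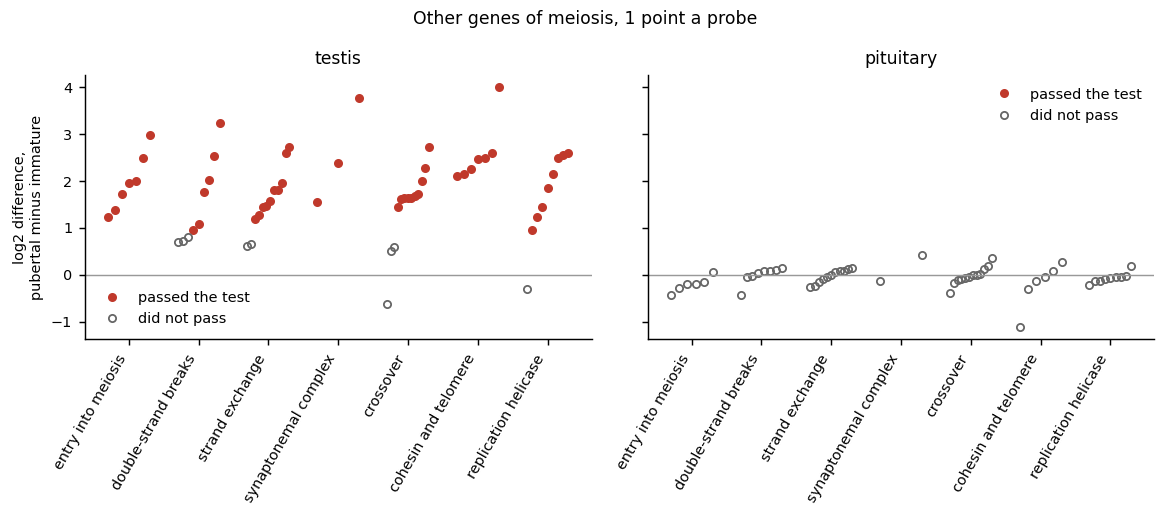
Log2 difference of pubertal minus immature fish (y axis) for the other meiosis genes by list (x axis), in testis (left) and pituitary (right); filled points passed the test and open points did not, 1 point per probe and sorted by value within a list. In testis 43 of 51 probes outside the replication helicase passed, all upward, and in pituitary none did.

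Set on the same scale as the 4 genes, the 43 list probes that passed had a median position of 0.64 in fish 184, 0.72 in fish 190 and 0.90 in fish 213 (there from -0.07 to 1.51). In fish 213, 6 of them lay below spo11: ccna1 (-0.07), msh4 (0.14), syce3 (0.22), fignl1 (0.29), tex11 (0.43) and spdya (0.55). Ccna1 encodes the cyclin of male meiosis in mice, and msh4 a protein that stabilises crossover intermediates. Sycp3 and mcmdc2, at 0.41 and 0.38, lay below all but 4 of the 43. Rec114 lay near the middle of the 43, with 21 above it in fish 213, among them mnd1 (0.97) and exo1 (1.01), and with 33 and 24 above it in fish 184 and 190. The 43 were kept because they passed over all 6 pubertal fish, so probes low in fish 184, 190 and 213 were less likely to be among them. Some also rose little to the 3 fish of highest GSI, such as mre11a (0.88) and rbbp8 (0.92), which makes their positions imprecise. The places of the 4 genes among the 43 are therefore only a description. The immature level was not empty for these lists either. Against immature pituitary 36 of 50 tested probes passed as higher in immature testis (median 1.38, against -0.15 over all probes), where 23% of all probes did. Against immature adipose tissue 41 of 51 passed as higher (median 2.06, against -0.13), where 25.9% of all probes did.

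Over the 20 testis arrays the 4 genes were correlated with each other at r = 0.92 to 0.98, and at 0.11 to 0.61 over the 14 immature ones. Among 7360 named probes, spo11 was most like simc1 (r = 0.99), odr4 (0.99) and dnah2, a dynein chain of the cilium (0.99). Sycp3 was most like si:ch211-122l24.6 (0.99), rsph3, a radial spoke protein of the cilium (0.99), and mkks (0.99). Rec114 was most like rttn, cps1 and si:ch211-209a2.2 (0.98 each), and mcmdc2 like cplane2, cuedc2 and bclx (0.98 each). Over the 14 immature testes the likest probes were others, with r of at most 0.91: thoc6, cstf2 and zgc:92313 for spo11, prs8, heatr1 and parpbp for rec114, zgc:85932, ctso and rsrc1 for sycp3, and mrpl3, sdhc and ccdc57 for mcmdc2. The arrays share their scaling, and these correlations are a description with no test.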

How the data were processed

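RNA of 3 tissues was labelled with a single dye and read on Agilent arrays. The authors deposited the scanner output, in which Feature Extraction 12.0.1.1 had background-subtracted and detrended each spot's intensity within an array but not scaled arrays to each other. The deposited processed values of the same arrays (intensities whose scaling and centring are not given in the sources used here; array medians of 4.00 to 7.28 on the log2 scale, up to 49.4% of values missing) served as an alternative. Here the log2 of the processed intensity minus the 75th percentile of the array was taken; control spots and outlier spots were dropped, and duplicates averaged. Of 42386 probes, 25420 found a RefSeq gene by accession. Values of different probes are not comparable as amounts.

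Models were fitted by limma 3.58.1 under R 4.3.3 (lmFit, eBayes, two-sided, Benjamini-Hochberg over all probes tested), permutation tests with scipy 1.17.1 and figures with matplotlib 3.10.9. Probes entered a test if the number of arrays well above background reached the size of the smaller group. Groups follow the stage labels, and the order of GSI is that in which the study lists its fish. Each fish is a replicate. One testis label gives a pair of fish numbers, and that of the title was used. Each model was tested on simulated data. Of probes changed by 2 log2 units, 36.5% were recovered between pubertal and immature adipose tissue and 80.5% to 99.5% in the other comparisons. So 0 calls in adipose tissue do not show an absence of change. The slope among pubertal testes recovered 67% of probes given 0.8 log2 units per rank. That among immature testes recovered 99% at 0.5 per rank. Alternatives were normexp (offset 50, on the median spot signal), quantile and median scaling, the authors' values, other filters, slide and scan batch, the methods' t-test, light groups A and B alone, fish blocks and leaving out fish. The named genes were the 4 members, the 2 largest and 2 smallest log2-ER per list, the 3 likest named probes and genes said to be chosen otherwise. The 4 genes, the lists and the tests were chosen with earlier results of these data known, and the positions between immature and late pubertal testes after seeing the values. The promoter motif search that had been planned was not run, and promoter and protein sequences were not used here.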

Additional observations from a re-analysis of the deposited data

Results flagged for a closer look

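Of the 12 sets of pubertal values (4 genes in 3 tissues) 1 held a fish far from the others. Spo11 in adipose tissue of pubertal fish 202 was -0.16, and its gap to the nearest of the other 5 fish, at -4.20, made up 0.77 of the whole range. Chance takes about 1 of 20 groups past the limit used. The testis markers on the same array are given with the adipose values, and their part in it was not tested.

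The difference between pubertal and immature fish was larger in testis than in pituitary by 3.45 for spo11, 4.31 for rec114, 3.18 for sycp3 and 3.87 for mcmdc2 on the log2 scale (limma interaction, each past the threshold). Of all probes tested 55.7% passed this test, 31.6% in the same direction. The genes were put forward from these same testes, so the interaction is a description and no independent evidence.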

How the results depend on the processing

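The differences of the 4 genes between pubertal and immature testes passed under every alternative run, at 2.75 to 3.60 for spo11, 3.23 to 4.52 for rec114, 2.64 to 3.44 for sycp3 and 2.29 to 3.95 for mcmdc2, and with each fish left out. The median of all probes in this comparison was 0.29, against 0.11 after normexp correction, 0.16 by quantiles, 0.37 with scaling to the median and -0.00 in the authors' values. Normexp with an offset raises low signals by construction. With it 9968 probes were called in testis (main 21044), 44 in pituitary (main 106), 8287 between immature testis and pituitary (main 17133), 9885 between immature testis and adipose tissue (main 18956) and 9784 in the interaction (main 21280). It also gave -0.049 for spo11, -0.13 for rec114 and -0.094 for sycp3 in pituitary, 0.49 for mcmdc2 against pituitary, 0.64 for rec114 and -0.20 for mcmdc2 against adipose tissue, slopes among immature testes of -0.013 for rec114 and -0.0065 for mcmdc2, and 0.17 for rec114 between light groups E and D. Between these light groups rec114 was 0.083 and sycp3 0.0092 in the authors' values, and sycp3 0.0047 by quantiles. In adipose tissue quantiles gave -0.14 for spo11 and -0.084 for mcmdc2. The cause of the other changes was not tested.

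In pituitary 5 probes were called with the scan batch as a term, 0 in the larger batch alone, 2 among light groups A and B, 263 without fish 160 and 250, 21 with fish 184, and 529 by the methods' t-test (61 after adjustment). Mcmdc2 was 0.023 with the batch as a term and in the larger batch, 0.076 among A and B and 0.099 with fish 184. Spo11 was -0.14 without fish 160 and 250 and -0.28 with fish 184. Among light groups A and B spo11 was 0.90, beyond the limit of 0.8, and did not pass. In adipose tissue the methods' t-test called 1227 before adjustment, and 1 probe was called without fish 160 and 250. Mcmdc2 was 1.64 in adipose tissue without these fish and did not pass. Against adipose tissue 8114 probes were called with the batch as a term. Without fish 160 and 250 the slope of spo11 among immature testes was 0.0045, and between light groups A and B and groups D and E 4 probes were called and mcmdc2 was -0.14.

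Slopes among pubertal testes depended on the setting. By quantiles 3312 probes were called and with scaling to the median 3596 (main 2106), where rec114, at 0.42, did not pass. In the authors' values, at 0.72 for spo11, 0.55 for rec114, 0.82 for sycp3 and 0.93 for mcmdc2, and with no filter, at 0.70, 0.54, 0.79 and 0.93 in the same order, 0 probes passed.

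With each fish of the comparison left out in turn (in pituitary the 5 pubertal fish only), calls numbered 19816 to 21653 in testis, 1 to 44 in pituitary, 0 to 0 in adipose tissue, 0 to 1605 for the slope, 0 to 2 between light groups E and D and 0 to 2 between A and B and D and E. The slopes lay at 0.63 to 0.82 for spo11, 0.35 to 0.75 for rec114, 0.76 to 0.89 for sycp3 and 0.88 to 1.08 for mcmdc2. Pituitary values lay at -0.29 to 0.39, 0.07 to 0.35, 0.10 to 0.33 and -0.24 to 0.34 in the same order of genes, and adipose values at -0.51 to 0.72 for spo11 and -0.39 to 1.32 for mcmdc2. Between light groups E and D they lay at -0.090 to 0.11, -0.12 to 0.12, -0.072 to 0.064 and 0.10 to 0.29, and between A and B and D and E at -0.046 to 0.24, 0.27 to 0.53, 0.20 to 0.31 and -0.034 to 0.63. Fish were not left out singly in the comparisons between tissues. With the fish as a replicate block the tissue differences were 3.81, 4.45, 6.02 and 1.78 against pituitary (17181 probes called) and 3.48, 4.90, 6.85 and 0.62 against adipose tissue (18988), and without the block the interaction was 3.45, 4.31, 3.18 and 3.87 (20726); the pairing changed no call of the 4 genes. Genes near background, rec114 and sycp3 outside the testis above all, are limited by signal over background.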

Other observations

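Mcmdc2 varied more within adipose tissue than the other genes did apart from fish 202, and the values named here were chosen after they were seen. It stood at -1.69 in pubertal fish 211 and -0.72 in pubertal fish 202, and at -1.16, -1.40 and -1.90 in immature fish 250, 240 and 233, against -5.22 to -2.84 on the other adipose arrays with a settled fish. These 5 arrays had the lowest median correlations with the other adipose arrays (0.87 to 0.91). Over the 19 adipose arrays mcmdc2 was most like cldn8.2, a claudin of tight junctions (r = 0.96 among 6867 named probes), cldx (0.93) and trpc1 (0.92). In testis the same claudin stood at -4.41 to -1.35 in pubertal fish and -8.02 to -5.54 in immature fish. It was well above background on only 6 of the 14 immature testis arrays, so that range is mostly unmeasured signal. The part of any other cell type in these arrays was not tested.

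The adipose array with an unsettled fish number held spo11 at -4.30, rec114 at -4.99, sycp3 at -5.12 and mcmdc2 at -4.05, none of them well above background.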
